A study of Rattus norvegicus with 8 samples.

Results

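The collagen genes described here are the 37 protein-coding genes of the deposited rat gene table whose symbol has the form of a collagen chain (Col, a type number, and a chain number), of 32883 genes in all. The 6 chains of the cartilage collagens that the rule names (*Col2a1*, *Col9a1*, *Col9a2*, *Col9a3*, *Col10a1*, and *Col11a2*) were left out of the set. Gene expression was measured by sequencing polyA mRNA of the right Achilles tendon from 4 wild-type rats that rested for 12 hours after 1 hour on a treadmill (the 12 h p.r. group) and from 4 wild-type naïve control rats, kept in their cages and killed together with the others (NC). The methods describe the animals of the running experiments as male Sprague-Dawley rats 8 to 10 weeks old that ran at 20 m/min on a 10° incline. Whole tendon was pulverized, so that the libraries hold RNA of every cell type in the dissected piece. Each library is taken as 1 rat, and rats of a group are called by their replicate number.

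Collagens are proteins of 3 chains wound into a triple helix. Fibril-forming collagens assemble into the banded fibrils that carry load in tendon, where type I makes up most of the fibril, type III mixes into it, and types V and XI help to start fibrils and limit their width. Other types coat the fibril surface (XII, XIV, XVI, and relatives), form beaded microfibrils around cells (VI), build the sheet-like network of basement membranes (IV), or span the cell membrane (XIII, XVII, XXIII, and XXV). The comparison asked how the mRNA of these chains stood some hours after a bout of running.

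The depth ran from 7350509 to 12951397 counted reads per rat. Rat 3 of the 12 h p.r. group stood apart in its tissue markers. Its 10 skeletal muscle markers summed to 67081 CPM (counts per 1000000, with library sizes scaled by TMM), while the other 7 rats had 2402 to 12572 CPM. Its 7 tenocyte markers summed to 2472 CPM, below the 4005 to 7540 CPM of the other rats. None of the tenocyte markers was at 0 in all rats. In the edgeR test, 3 of the 7 (*Scx*, *Mkx*, and *Thbs4*) were higher at 12 h p.r. at an unadjusted p-value under 0.05. Over all genes tested, 5.44% were higher at that value. The log2 fold change was 0.60 for *Comp* (unadjusted p = 0.325 by edgeR). For *Tnmd*, *Fmod*, and *Egr1* it was −0.07, −0.06, and −0.42. The cartilage and bone markers summed to 819 CPM in 12 h p.r. rat 1 and to 1827 CPM in NC rat 3, and to at most 398 CPM elsewhere. In bulk tissue, fewer cells of a type and less RNA per cell cannot be told apart.

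None of the 37 genes passed the test at an adjusted p-value under 0.05. Of the 32 that had enough reads to be tested, 0 were called by the quasi-likelihood test of edgeR, and their lowest adjusted p-value was 0.432. The Wald test of DESeq2 also called 0 of the 32. The share of all genes that DESeq2 called is not given here, so no background stands beside this 0. Over all 13937 genes tested, the edgeR test called 1 gene, or 0.00718%. At an unadjusted p-value under 0.05, the test picked 3 of the 32 collagen genes, which is 9.38% of them, against 9.51% of all genes tested. The 3 were *Col5a3*, higher at 12 h p.r., and *Col28a1* and *Col4a4*, both lower. That is 1 of 32 in the higher direction, where the background was 5.44%, and 2 of 32 in the lower direction, where it was 4.08%. No collagen gene had 4 running rats all above or all below the 4 control rats, compared with 6.06% of all genes tested. No collagen gene differed by a fitted fold of 2 or more either way, compared with 2.14% of all genes. The edgeR test was repeated without the 3 rats that stood apart (12 h p.r. rats 1 and 3 and NC rat 3). It again gave 0 collagen genes at an adjusted p-value under 0.05, where the share of all genes is not given here. That fit kept only 12 h p.r. rats 2 and 4 and NC rats 1, 2, and 4. In it 6 collagen genes were higher and 1 lower at an unadjusted p-value under 0.05, or 21.9% of the 32 against 9.17% of all genes. By direction, 4.82% of all genes were higher and 4.35% lower. The 6 were *Col1a2*, *Col6a1*, *Col13a1*, *Col15a1*, *Col16a1*, and *Col23a1*, and the lower gene was *Col28a1*.

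The fitted log2 fold changes of the 32 genes ran from −0.64 (*Col28a1*) to 0.56 (*Col23a1*), with a median of 0.06 against 0.02 over all genes tested. Of the 32, 18 lay above 0 and 14 below, so that 56.3% were above 0 against 54.2% of all genes. The median standard error (SE) of a collagen fold change was 0.240 on the log2 scale, and that of all genes was 0.167.

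**Figure D1:**
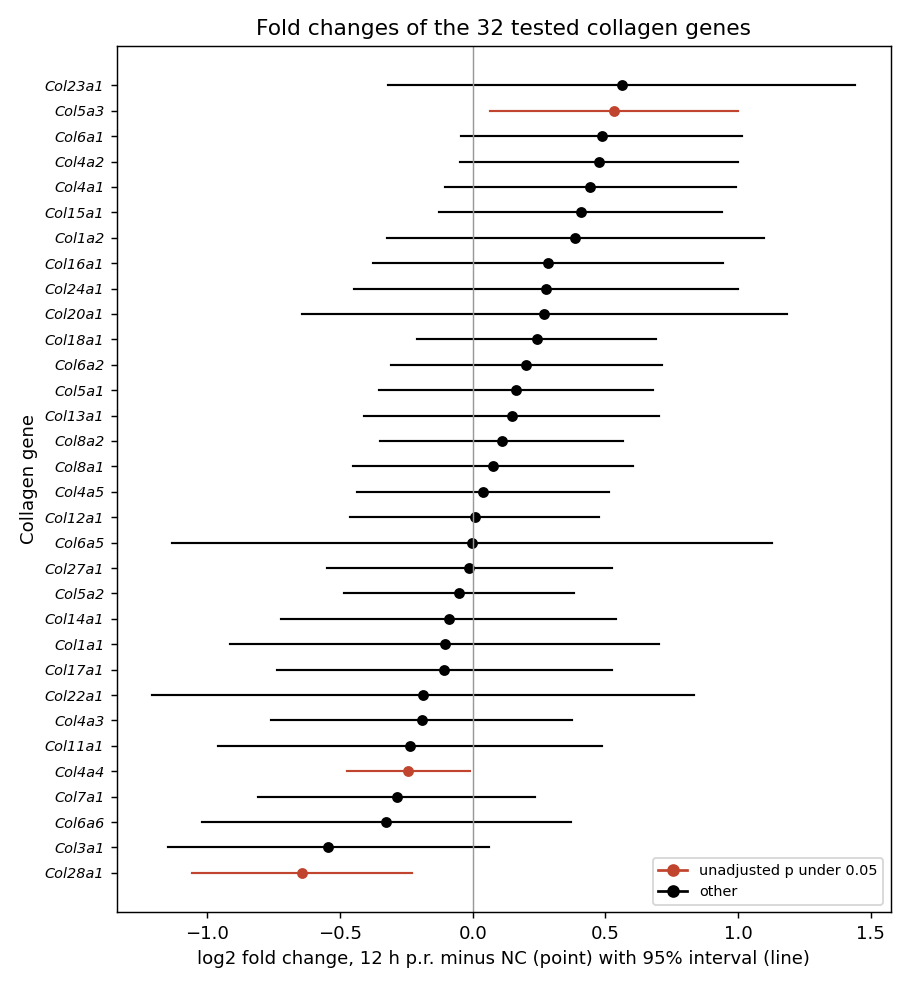
log2 fold change of each of the 32 tested collagen genes, 12 h p.r. minus NC (points), with the 95% interval of the edgeR fit (lines), on the horizontal axis; genes are ordered by their fold change. The intervals of *Col5a3*, *Col4a4*, and *Col28a1* (red) leave out 0, and those of the other 29 genes span it.

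The running rats 1 and 3 also marked the extremes of the collagen genes. The 12 h p.r. rat 3 held the lowest CPM of 11 of the 32 genes and the highest of 0. The 12 h p.r. rat 1 held the highest CPM of 11 genes and the lowest of 1. All collagen genes together took 6.11%, 4.43%, 2.34%, and 4.97% of the counted reads in 12 h p.r. rats 1 to 4 and 5.05%, 4.20%, 5.59%, and 4.23% in the NC rats. The group means differed by −0.31 percentage points (12 h p.r. minus NC), and without 12 h p.r. rat 3 the difference was 0.40 percentage points. In 12 h p.r. rat 3 the lowest share went with the highest muscle and the lowest tenocyte marker sum. Among the other 7 rats, NC rat 3 had the highest muscle sum and a share of 5.59%. The shares were highest in 12 h p.r. rat 1 and NC rat 3. These rats also had the highest cartilage and bone marker sums, at 819 and 1827 CPM. The part of these markers in the share was not tested.

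**Figure D2:**
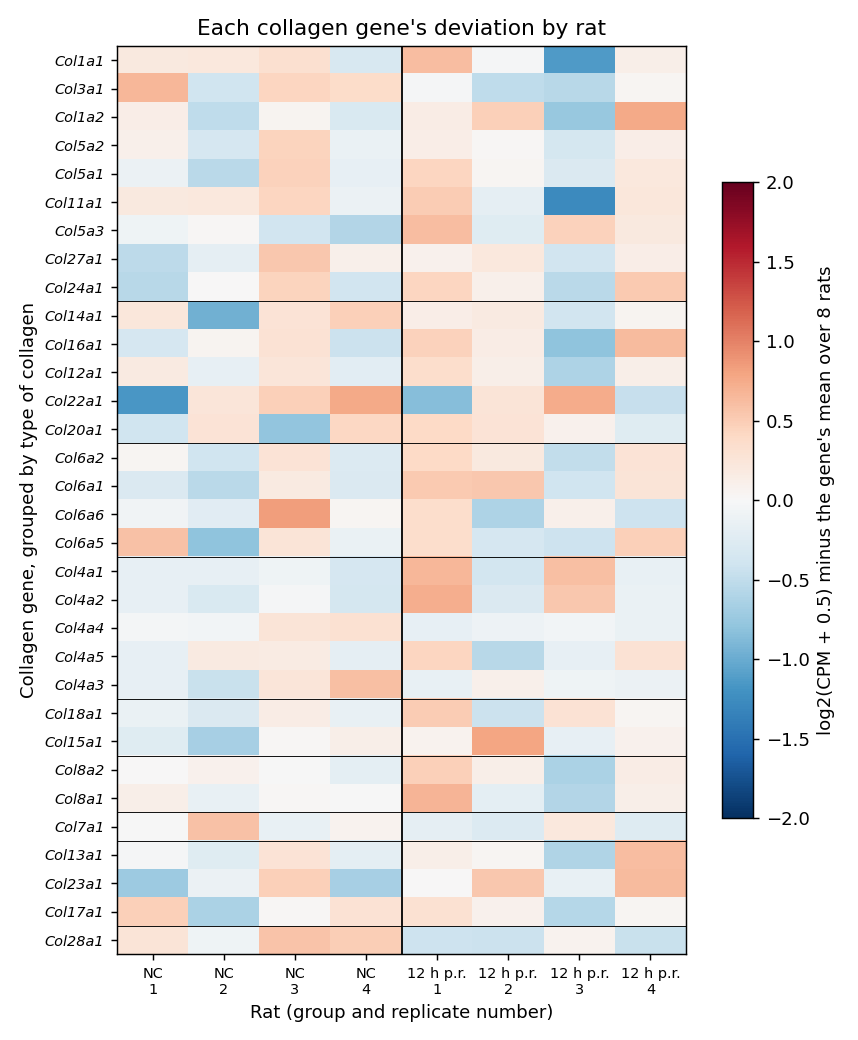
Deviation of each of the 32 tested collagen genes (rows, grouped by type of collagen) from its own mean over the 8 rats (columns), as log2(CPM + 0.5). The column of 12 h p.r. rat 3 is blue for most fibril-forming and fibril-associated genes, with a median over the 32 genes of −0.37, and that of 12 h p.r. rat 1 is mostly red, with a median of 0.36.

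Levels of different genes are compared here only per length, as the FPKM values that the authors deposited (fragments per kilobase of gene, scaled for depth). The chains of types I and III dominated the pool. *Col1a1* ranked the highest with 4568 ± 823 FPKM (SD, n = 4) in the NC group, then *Col3a1* with 2166 ± 607 FPKM and *Col1a2* with 952 ± 195 FPKM. *Col1a1* exceeded *Col3a1* in each of the 8 rats, while *Col3a1* and *Col1a2* changed places between rats. Next came *Col6a2* (272 ± 57.7 FPKM), *Col6a1* (190 ± 41.3 FPKM), *Col4a1* (186 ± 13.4 FPKM), and *Col4a2* (122 ± 12.4 FPKM), of which *Col6a1* and *Col4a1* lay within their spread of each other. These 7 chains were above 100 FPKM in every rat. At the other end, 8 of the 37 genes stayed under 1 FPKM in every rat. *Col1a1*, *Col1a2*, and *Col3a1* together made up 74.3% to 87.6% of the FPKM summed over the 37 genes.

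The makeup of this pool was compared between the groups by type of collagen. The 9 fibril-forming chains held 77.8% to 87.5% of the summed collagen FPKM in the 12 h p.r. rats and 87.7% to 89.8% in the NC rats. The type VI chains of the set held 6.24% to 7.94% in the 12 h p.r. rats and 4.64% to 5.88% in the NC rats. *Col6a3* was not analysed and is missing from these shares and from the total. In both cases the groups did not overlap, though the gap between the nearest rats was small. The type IV chains held 3.48% to 10.7% and 3.25% to 3.93%, and the groups overlapped, as they did for every remaining type of collagen in the set. The shares sum to a fixed total and were not tested.

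**Figure D3:**
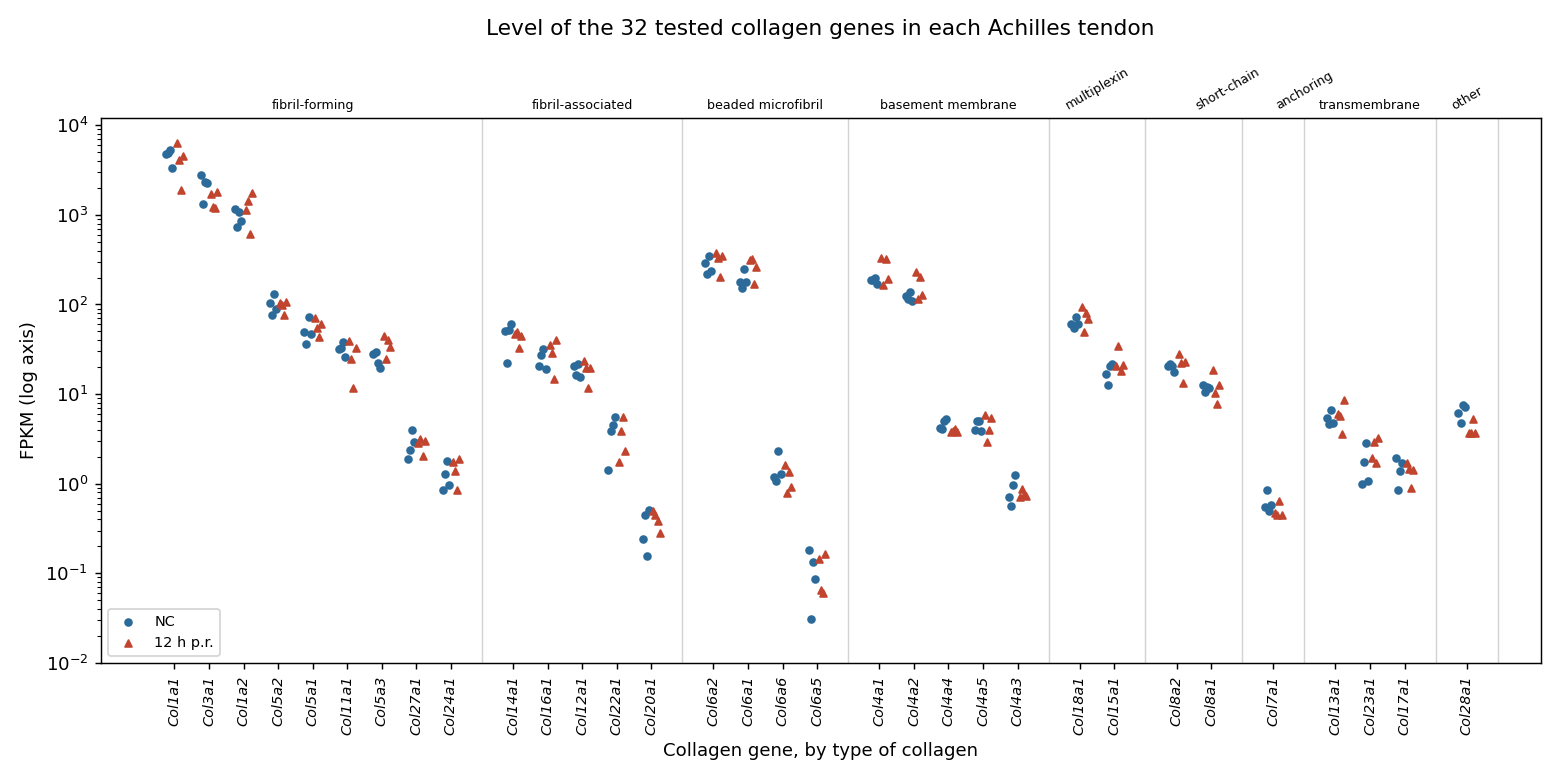
FPKM (log axis) of the 32 tested collagen genes in each rat, with the genes ordered within each type of collagen by their NC mean. Circles are NC rats and triangles 12 h p.r. rats. *Col1a1*, *Col3a1*, and *Col1a2* lie above all other genes in every rat, and the triangles overlap the circles for every gene.

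Type I collagen is built from *Col1a1* and *Col1a2* chains. *Col1a1* was at 37602, 24138, 11092, and 26379 CPM in 12 h p.r. rats 1 to 4 and at 28080, 28413, 30606, and 19647 CPM in the NC rats. Rats 1 and 3 of the 12 h p.r. group held the highest and the lowest value of all 8, and the NC rats fell between them. The log2 fold change was −0.11 (SE 0.358, adjusted p = 0.945 by edgeR), with a 95% interval from −0.91 to 0.70, so that a fold in either direction within these bounds was not resolved. Without 12 h p.r. rat 3 it was 0.14. *Col1a2* was at 5177, 6478, 2770, and 7924 CPM at 12 h p.r. and at 5148, 3295, 4858, and 3787 CPM in NC. Running rats 1, 2, and 4 were above all control rats, and rat 3 was below all of them. Its log2 fold change was 0.39 (SE 0.314, unadjusted p = 0.249), and without 1 rat it ran from 0.17 (unadjusted p = 0.602, without 12 h p.r. rat 4) to 0.61 (unadjusted p = 0.0232, without 12 h p.r. rat 3).

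*Col3a1*, the chain of type III collagen, was at 8242, 5884, 5671, and 8581 CPM in 12 h p.r. rats 1 to 4. In the NC rats it was at 13154, 6307, 11212, and 10722 CPM. NC rats 1, 3, and 4 were above every running rat, while NC rat 2 lay inside the 12 h p.r. range. The log2 fold change was −0.54 (SE 0.268, unadjusted p = 0.0723), with an adjusted p of 0.561 by edgeR. The Wald test of DESeq2 gave an unadjusted p of 0.0200 for the same gene. Without 1 rat, the edgeR value ran from −0.72 (unadjusted p = 0.0132, without NC rat 2) to −0.41 (unadjusted p = 0.180, without NC rat 1). The sums of the 10 leukocyte markers split the rats in the same way, with values of 1094, 895, and 981 CPM in NC rats 1, 3, and 4, 368 CPM in NC rat 2, and 301 to 803 CPM at 12 h p.r. None of the 10 was at 0 in all rats and 0 passed an unadjusted p-value of 0.05, and their part in the level of *Col3a1* was not tested.

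Type V collagen sits inside the fibril and takes part in its nucleation. *Col5a3*, the least common of its chains, was at 273, 149, 246, and 203 CPM at 12 h p.r. and at 168, 181, 136, and 118 CPM in NC. The running rats 1, 3, and 4 were above all control rats, and rat 2 was among them. *Col5a3* (ENSRNOG00000020525) had a log2 fold change of 0.53 (SE 0.206, unadjusted p = 0.0293), and its adjusted p was 0.480 by edgeR. The unadjusted p exceeded 0.05 when 12 h p.r. rat 1, 12 h p.r. rat 3, NC rat 3, or NC rat 4 was left out, and reached 0.0871 without 12 h p.r. rat 1.

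The other type V chains showed no such difference. *Col5a1* was at 464, 355, 282, and 399 CPM at 12 h p.r. and 320, 237, 475, and 307 CPM in NC (log2 fold change 0.16, SE 0.228). *Col5a2* was at 475, 442, 340, and 479 CPM at 12 h p.r. and 466, 343, 594, and 395 CPM in NC (−0.05, SE 0.191). Both sets of values overlapped throughout. The remaining fibril-forming genes were *Col11a1*, a type XI chain, at 89.3 to 305 CPM, and the low *Col24a1* and *Col27a1*, at 3.45 to 22.3 CPM. Their log2 fold changes were −0.24, 0.28, and −0.01. In the whole group of 9, 1 gene was higher and 0 lower at an unadjusted p-value under 0.05, and the median log2 fold change was −0.01.

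**Figure D4:**
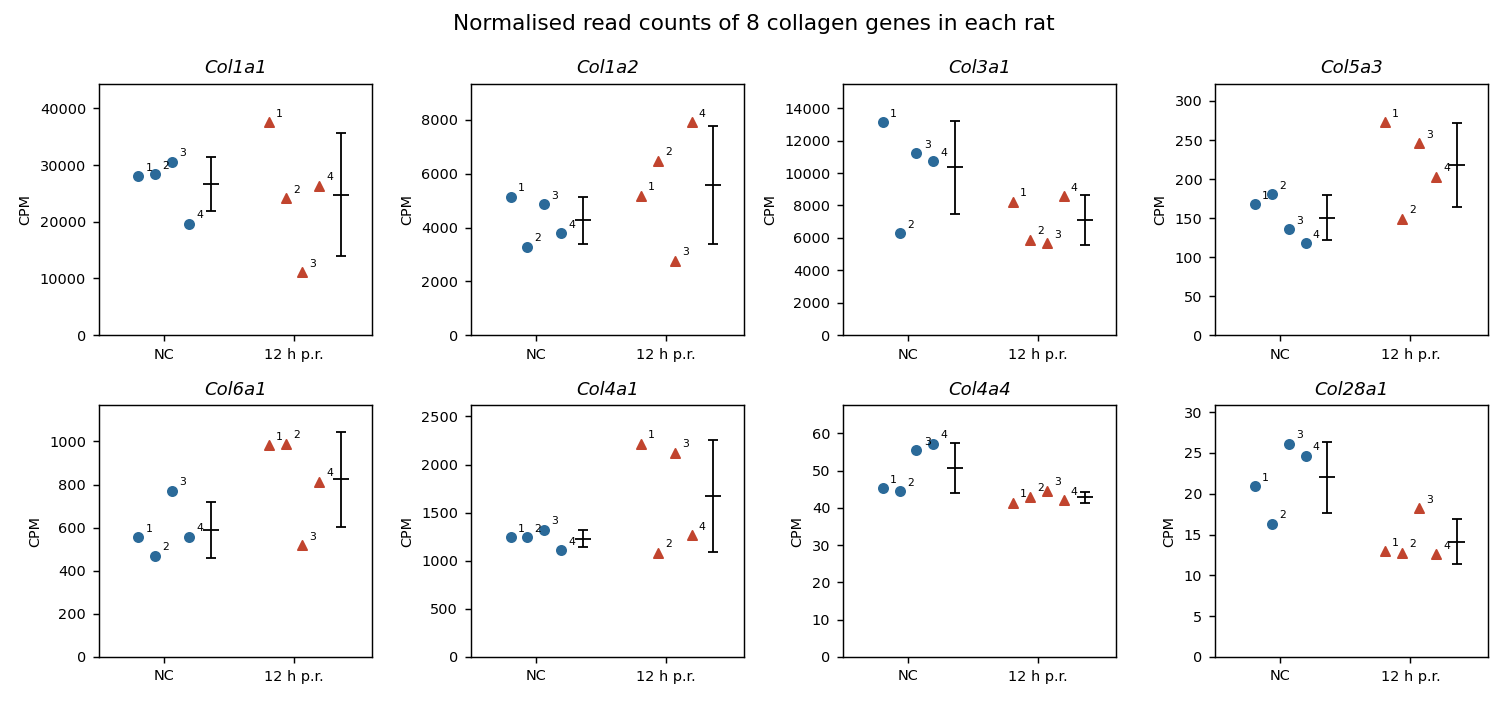
CPM of 8 collagen genes in each rat, with the replicate number beside each point; the black bars are the group mean ± SD (4 rats). *Col3a1* and *Col28a1* sit lower in most running rats, *Col5a3* sits higher in 3 of 4, and 12 h p.r. rat 3 is the lowest point for *Col1a1* and *Col1a2*.

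Collagens on the fibril surface link fibrils to each other and to the surrounding matrix. *Col12a1*, which binds the surface of type I fibrils, was at 248, 209, 125, and 209 CPM at 12 h p.r. and at 219, 173, 229, and 167 CPM in NC. The group means were 198 ± 51.8 and 197 ± 31.8 CPM (SD, n = 4), and the 95% interval of the log2 fold change ran from −0.46 to 0.48. *Col14a1*, its close relative, was at 255, 265, 179, and 241 CPM at 12 h p.r. and at 273, 120, 282, and 325 CPM in NC. The running rats all lay inside the NC range for this gene, which NC rat 2 set at its lower end (log2 fold change −0.09, SE 0.279).

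*Col16a1* was at 78.4 to 213 CPM in the 12 h p.r. rats and 101 to 168 CPM in the NC rats (0.28, SE 0.292). *Col22a1*, a collagen of the junction between muscle and tendon, ran from 8.54 to 27.0 CPM and from 6.81 to 27.3 CPM, a wide spread in both groups. *Col20a1* was at 0.680 to 2.21 CPM over all rats. None of the 5 tested genes of this group passed an unadjusted p-value of 0.05 in either direction, and their median log2 fold change was 0.01.

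Type VI collagen forms the beaded filaments of the pericellular matrix. *Col6a1* was at 981, 989, 517, and 812 CPM at 12 h p.r. and at 557, 469, 771, and 558 CPM in NC. Running rats 1, 2, and 4 were above all control rats, and rat 3 was among them. The log2 fold change was 0.49 (SE 0.234, unadjusted p = 0.0672), and without 1 rat it ran from 0.39 (unadjusted p = 0.160, without 12 h p.r. rat 2) to 0.66 (unadjusted p = 0.00563, without 12 h p.r. rat 3), with an unadjusted p of 0.0269 without NC rat 3. *Col6a2* was at 1393, 1219, 754, and 1280 CPM at 12 h p.r. and at 1085, 802, 1276, and 876 CPM in NC, a log2 fold change of 0.20 (SE 0.226). The groups overlapped for this chain.

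The newer type VI chains were scarce. *Col6a6* was at 11.0, 5.40, 9.16, and 6.29 CPM at 12 h p.r. and 8.10, 7.24, 15.6, and 8.75 CPM in NC (−0.33, SE 0.307). *Col6a5* was at 1.16, 0.527, 0.476, and 1.31 CPM at 12 h p.r. and 1.44, 0.245, 1.06, and 0.680 CPM in NC, with 73 reads over all rats. *Col6a4* had 17 reads in all and was not tested. *Col6a3* was not analysed here.

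The basement membrane genes did not share a single pattern. *Col4a1*, which with *Col4a2* forms the common type IV network around vessels and muscle fibers, was at 2216, 1083, 2122, and 1264 CPM at 12 h p.r. and at 1242, 1244, 1322, and 1107 CPM in NC. Running rats 1 and 3 were far above the other 6 rats, which lay close together. *Col4a2* was at 1152, 571, 1010, and 639 CPM at 12 h p.r. and at 622, 567, 685, and 548 CPM in NC, with the same pair of rats on top. The log2 fold changes were 0.44 (SE 0.243, unadjusted p = 0.101) and 0.48 (SE 0.232, unadjusted p = 0.0691). Without 12 h p.r. rats 1 and 3 and NC rat 3, they were −0.029 and 0.065. Without 12 h p.r. rat 2 alone, both had an unadjusted p under 0.05, at 0.0232 and 0.0179, and *Col4a2* was at 0.0390 without 12 h p.r. rat 4. The 9 endothelial markers summed to 1556 to 1894 CPM at 12 h p.r. and 1597 to 1722 CPM in NC. The 9 pericyte and smooth muscle markers summed to 1656 to 2096 CPM and 1389 to 1881 CPM. No marker of either list was at 0 in all rats. The pericyte and smooth muscle sums were highest in 12 h p.r. rats 3 and 1, at 2096 and 2023 CPM. The endothelial sums were highest in 12 h p.r. rats 3, 4, and 1, at 1894, 1824, and 1797 CPM. Of the endothelial markers, 2 were higher (*Tie1* and *Egfl7*) and 1 lower (*Emcn*) at an unadjusted p-value under 0.05. Of the pericyte and smooth muscle markers, 0 passed in either direction. Over all genes tested, 5.44% were higher and 4.08% lower at that value. The part of these 2 marker lists in the levels of *Col4a1* and *Col4a2* was not tested.

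*Col4a4*, a chain of the second type IV network, was at 41.4, 42.9, 44.6, and 42.1 CPM at 12 h p.r. The NC rats were at 45.3, 44.4, 55.5, and 57.2 CPM. The running rats lay within a narrow band, and rats 1, 2, and 4 were below all control rats while rat 3 exceeded NC rat 2. *Col4a4* (ENSRNOG00000014851) had a log2 fold change of −0.24 (SE 0.103, unadjusted p = 0.0417), with an adjusted p of 0.507 by edgeR. The unadjusted p exceeded 0.05 when any of 12 h p.r. rats 1, 2, and 4 or NC rats 3 and 4 was left out, and reached 0.118 without NC rat 4. Its partner *Col4a3* was at 3.80 to 8.33 CPM over all rats (−0.19, SE 0.252), and *Col4a5* at 19.2 to 38.6 CPM (0.04, SE 0.211).

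*Col28a1*, a short collagen known from peripheral nerve, had the lowest unadjusted p of the collagen genes. It was at 12.9, 12.8, 18.2, and 12.6 CPM at 12 h p.r. and at 20.9, 16.3, 26.1, and 24.6 CPM in NC. Running rats 1, 2, and 4 were nearly equal and below all control rats, and rat 3 lay between NC rats 2 and 1. *Col28a1* (ENSRNOG00000033618) had a log2 fold change of −0.64 (SE 0.183, unadjusted p = 0.00669), a fold of 0.641, with an adjusted p of 0.432 by edgeR. The sign and an unadjusted p-value under 0.05 held without each rat in turn, where the log2 fold change ran from −0.79 to −0.55 and the unadjusted p from 0.00129 to 0.0220.

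Markers of Schwann cells, the glia of peripheral nerve, were set beside *Col28a1*. The 7 markers summed to 959 to 1278 CPM at 12 h p.r. and to 1000 to 1686 CPM in NC, none was at 0 in all rats, and 1 of the 7 was lower at an unadjusted p-value under 0.05. This was *Pmp22*, a protein of myelin (log2 fold change −0.49, unadjusted p = 0.00611). Their part in the level of *Col28a1* was not tested.

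The remaining types gave no call. The multiplexins *Col15a1* and *Col18a1*, which sit at basement membranes, had log2 fold changes of 0.41 (SE 0.235) and 0.24 (SE 0.200). *Col15a1* was highest in 12 h p.r. rat 2, at 182 CPM, and the other 7 rats ranged from 65.5 to 113 CPM. The short-chain *Col8a1* and *Col8a2*, found around vessels, had 0.08 and 0.11, and *Col7a1*, the anchoring fibril of skin, −0.29 at 4.08 to 7.85 CPM. Among the transmembrane collagens, *Col23a1* had the largest positive fold change of all 32 genes (0.56, SE 0.390, unadjusted p = 0.183) on only 195 reads over all rats, with *Col13a1* at 0.15 and *Col17a1* at −0.11. The 5 genes that were not tested (*Col4a6*, *Col6a4*, *Col19a1*, *Col25a1*, and *Col26a1*) reached at most 1.31 CPM in any rat.

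Chains that share a molecule or a fibril were compared as ratios of FPKM within each rat, which removes a scaling common to both chains. Of the 8 pairs with both chains measured, the exact permutation test of the log2 ratio gave 1 pair with a 2-sided p at 0.0286, the smallest value that 4 against 4 rats allow. This was *Col5a1*/*Col5a2*, at 0.673, 0.553, 0.571, and 0.574 in the 12 h p.r. rats and 0.472, 0.476, 0.551, and 0.535 in the NC rats. Each running rat was above each control rat, though 12 h p.r. rat 2 exceeded NC rat 3 by little. The mean ratios were 0.593 ± 0.0545 and 0.508 ± 0.0402 (SD), and the p adjusted over the 8 pairs was 0.229 in the exact permutation test. Without 12 h p.r. rat 1, 2, 3, or 4 or NC rat 1 or 2, the exact permutation p was over 0.05, and it was 0.114 without 12 h p.r. rat 1. The remaining running rats were still all above the remaining control rats in each case. With 1 rat fewer the groups differ in size, and whether the difference rests on 1 rat was not tested. *Col6a1*/*Col6a2* was 0.850 ± 0.0892 at 12 h p.r. and 0.701 ± 0.0628 in NC, with an exact permutation p of 0.0571 (adjusted 0.229).

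The 2 chains of type I did not keep a fixed proportion in the mRNA. *Col1a1*/*Col1a2* was 5.58, 2.86, 3.08, and 2.56 in the 12 h p.r. rats and 4.19, 6.63, 4.84, and 3.99 in the NC rats. Running rats 2, 3, and 4 were below every control rat, and rat 1 was among them. The ratio spanned 2.59-fold over the 8 rats, and its exact permutation p was 0.143 (adjusted 0.286). *Col3a1*/*Col1a1* spanned 2.49-fold with a p of 0.429 by the exact permutation test. A further ratio was chosen after its values were seen: *Col3a1*/*Col1a2* was 1.50, 0.853, 1.92, and 1.02 at 12 h p.r. and 2.40, 1.80, 2.17, and 2.66 in NC, where only rat 3 of the running rats exceeded NC rat 2.

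Other pairs kept nearly constant ratios while their levels moved. *Col4a1*/*Col4a2* was 1.44, 1.42, 1.58, and 1.48 at 12 h p.r. and 1.50, 1.65, 1.45, and 1.52 in NC. That is a span of 1.16-fold, while the FPKM of *Col4a1* spanned 2.03-fold and that of *Col4a2* 2.08-fold. *Col11a1*/*Col1a1* spanned 1.29-fold, from 0.00600 to 0.00771, while each of the 2 genes spanned more than 3-fold in FPKM (3.39-fold and 3.36-fold). *Col11a1* therefore followed *Col1a1* across the rats more closely than *Col1a2* did. The exact permutation test gave a p of 0.429 for the first ratio and 0.143 for the second.

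**Figure D5:**
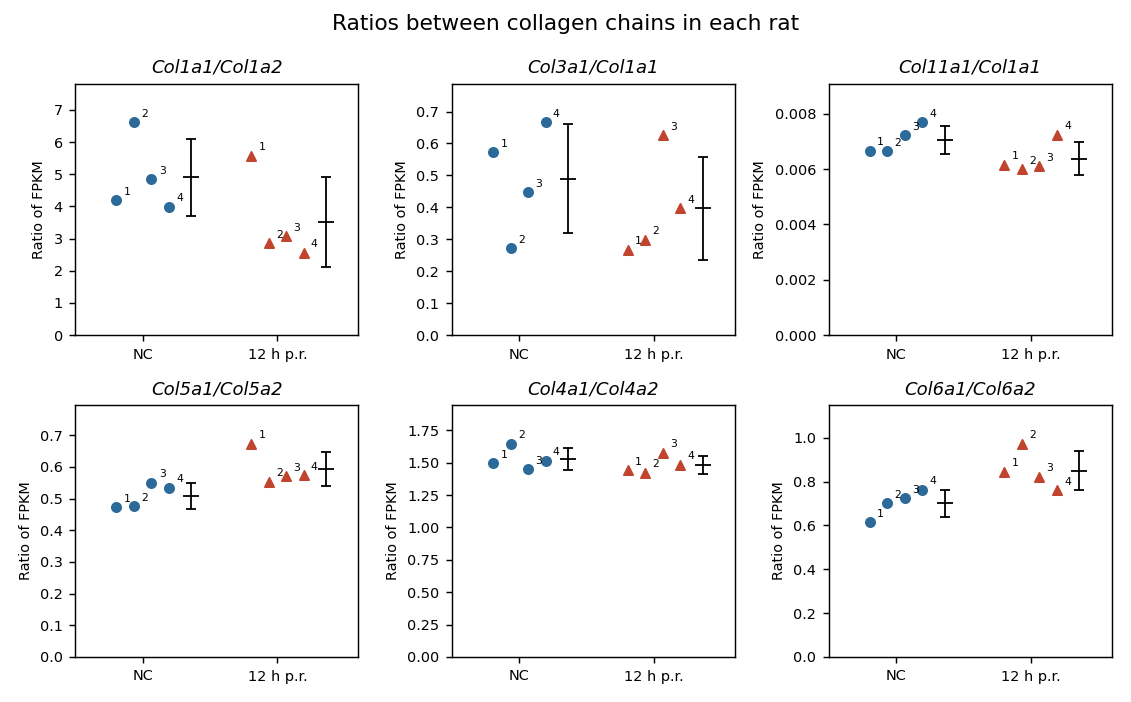
Ratio of the FPKM of 6 pairs of collagen chains in each rat, with the replicate number beside each point and the group mean ± SD (black bars, 4 rats); each axis starts at 0. *Col4a1*/*Col4a2* and *Col11a1*/*Col1a1* are nearly flat, *Col1a1*/*Col1a2* runs from 2.56 to 6.63, and all 12 h p.r. rats are above all NC rats for *Col5a1*/*Col5a2*.

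The sequences next to the start sites are shown for *Col4a1* and *Col4a2* and for *Col11a1*, from the 2 steadiest ratios, for *Col5a1* and *Col5a2*, whose ratio did not overlap between the groups, and for the other pair that starts head to head. In the set of RefSeq promoter windows used here (build GRCr8), matched by symbol, 30 of the 37 genes had a window. *Col1a1*, *Col3a1*, *Col6a2*, *Col12a1*, *Col14a1*, *Col22a1*, and *Col25a1* had none in that set. *Col4a1* and *Col4a2* start head to head, with 76 bases between their start sites (chr16:84885521-84885596). *Col4a3* and *Col4a4* likewise face away from each other across 412 bases, and the 88 bases that both windows cover are shown (chr9:91323740-91323827). For *Col11a1* (chr2:204508986-204509135), *Col5a1* (chr3:31606730-31606879), and *Col5a2* (minus strand, chr9:55090152-55090301), the 150 bases before the start are shown. Lines run 5′ to 3′ on the plus strand except *Col5a2*, which is on its own strand. Capitals mark 3 short motifs searched on both strands. The first, the GC box, reads GGGCGG. The second has the letters CCAAT and is named for them. The third, the TATA box, reads TATAAA.
Col4a1 and Col4a2, between the starts: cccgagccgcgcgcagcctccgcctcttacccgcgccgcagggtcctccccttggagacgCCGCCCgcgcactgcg
Col4a3 and Col4a4, shared by both windows: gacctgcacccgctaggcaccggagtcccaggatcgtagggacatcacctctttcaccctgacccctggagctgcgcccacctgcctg
Col11a1, before the start: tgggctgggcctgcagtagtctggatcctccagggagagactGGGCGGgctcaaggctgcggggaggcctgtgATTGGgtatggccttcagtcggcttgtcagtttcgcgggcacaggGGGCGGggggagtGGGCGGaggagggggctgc
Col5a1, before the start: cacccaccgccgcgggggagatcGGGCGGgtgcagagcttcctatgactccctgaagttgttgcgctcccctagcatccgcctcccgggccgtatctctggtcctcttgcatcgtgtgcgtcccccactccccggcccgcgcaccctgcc
Col5a2, before the start: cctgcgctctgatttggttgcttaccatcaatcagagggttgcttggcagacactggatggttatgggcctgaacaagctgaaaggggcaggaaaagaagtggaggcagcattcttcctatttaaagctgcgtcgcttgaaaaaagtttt

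The stretch between *Col4a1* and *Col4a2* was 78.9% G or C and held 1 GC box. The *Col11a1* stretch held 3 GC boxes and 1 CCAAT box, the *Col5a1* stretch 1 GC box, and the *Col5a2* stretch none of these letters and 47.3% G or C. In the 250 bases before the start, GGGCGG on either strand was found in 17 of the 28 collagen genes with 1 window (60.7%) and in 30.5% of all 33469 windows. That background counts every window, also where a gene has several. These collagen windows ran from 40.4% (*Col6a4*) to 75.2% (*Col4a1*) G or C, most of them above the all-window median of 51.2%. The part of this content in the GGGCGG share was not tested. CCAAT was found in 9 of 28 (32.1%) and in 34.0% of all windows, and TATAAA in 3 of 28 (10.7%) and in 12.9% of all windows. These matches are letters in a window and were not tested against the expression values.

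Genes that make, process, bind, or break down collagen were described in the same way. Of 64 tested genes in 5 lists, at an unadjusted p-value under 0.05 the 12 h p.r. group had 2 above NC and 3 below, which is 7.81% of them against 9.51% of all genes tested, and 0 had an adjusted p under 0.05 by edgeR. Among 20 genes for procollagen modification and folding, *P4ha2*, a subunit of the enzyme that hydroxylates proline in collagen, was lower (log2 fold change −0.37, SE 0.137, unadjusted p = 0.0252). It was at 29.0 to 42.3 CPM at 12 h p.r. and 44.9 to 55.4 CPM in NC, so that the groups did not overlap, as for 6.06% of all genes tested. Among 11 genes for processing and crosslinking, *Loxl4*, of the lysyl oxidase family, was higher (0.76, SE 0.326, unadjusted p = 0.0432).

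Among 14 proteins that bind fibrils, *Thbs4* was higher (0.56, SE 0.234, unadjusted p = 0.0409) and *Postn*, which encodes periostin, was lower (−0.82, SE 0.331, unadjusted p = 0.0348). Among 9 collagen-degrading proteases, *Mmp2*, a gelatinase, was lower (−0.66, SE 0.240, unadjusted p = 0.0223). The 10 tested collagen receptors had 0 genes past this value in either direction. The groups overlapped for *Loxl4*, *Thbs4*, *Postn*, and *Mmp2*. For *Postn* and *Mmp2*, NC rats 1, 3, and 4 were above every running rat and NC rat 2 was not, a split also seen in the leukocyte marker sums, whose part was not tested. The median log2 fold changes of the lists were 0.10, −0.02, −0.04, and −0.25 in the order named, and 0.01 for the receptors.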

How the data were processed

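The 37 collagen genes were taken by symbol and biotype from the deposited gene table. The members and the gene lists were chosen with earlier results of these data known. The authors aligned stranded polyA libraries to Rnor_6.0 with HISAT2 2.1.0 and counted reads per gene with featureCounts 1.6.3, as named in the submitters' processing notes, and the deposited counts are whole reads without normalization. How reads matching several genes were counted, and whether the counting used the strand, is not given in the sources used here. The FPKM values deposited by the authors were checked to equal counts divided by a length and by 1 factor per rat. The authors' comparison table, made with DESeq2 1.30.1, holds fold changes and p-values and was not used.

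Genes were filtered with filterByExpr, scaled with TMM, and tested with the quasi-likelihood test of edgeR 4.0.16 (R 4.3.3), with Benjamini-Hochberg adjustment over 13937 genes, and the procedure was tested on simulated data. The standard error was taken from the F statistic. CPM uses the TMM-scaled library size. Ratios of chains were compared on the log2 scale with exact 2-sided permutation tests over the 70 splits of the rats. The edgeR p-values set the group difference against the spread between these 8 libraries, estimated partly over all genes. The permutation p-values rank that difference among the splits. DESeq2 1.42.0 was an alternative, along with other factors, no filter, each rat left out, a replicate block, a muscle covariate, and 3 rats left out. Named in full were genes with an unadjusted p under 0.05 or without overlap and the chains of types I, III, V, VI, XII, and XIV. In the lists, up to 3 genes with the smallest unadjusted p under 0.05 were named. Other genes and ratios were described after their values were seen. 1 marker gene of the lists is not reported here and was left out of its list. Promoter windows came from RefSeq (GRCr8), a build other than that of the counts, and were matched by symbol. Figures were drawn with matplotlib 3.10.9 (Python 3.11.15).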

Additional observations from a re-analysis of the deposited data

Results flagged for a closer look

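In 82 groups of 4 values, 2 held 1 rat whose gap to the nearest rat was large for the group's range by Dixon's criterion, and chance flags about 1 in 20 such groups, or 4.1 of 82. *Col28a1* in 12 h p.r. rat 3 was at 18.208 CPM, where the other 3 running rats were at 12.58 to 12.942 CPM. The *Col11a1*/*Col1a1* ratio of FPKM in 12 h p.r. rat 4 was 0.0072515, where the other 3 running rats were at 0.0059952 to 0.0061664.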

How the results depend on the processing

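No collagen gene had an adjusted p-value under 0.05 under any alternative run. For the alternatives the share of all genes called at this threshold is not given, so these counts of 0 have no background here. At an unadjusted p-value under 0.05, DESeq2 gave 3 higher (*Col5a3*, *Col4a2*, and *Col6a1*) and 3 lower genes (*Col3a1*, *Col4a4*, and *Col28a1*), or 18.8% of the 32 against 9.33% of all genes. The replicate block gave 1 higher and 1 lower (6.25% against 6.99%) and the muscle covariate also 1 and 1 (6.25% against 11.0%). Leaving out 12 h p.r. rats 1 and 3 and NC rat 3 together gave 6 higher (without *Col5a3*) and 1 lower (21.9% against 9.17%). Without 1 rat, the higher genes numbered 0 to 4 and the lower 1 to 3, or 3.12% to 18.8% of the 32 against 6.28% to 11.1% of all genes. *Col28a1* was among the lower genes under every alternative. The replicate numbers did not pair the rats: correlations of same-numbered rats were 0.07, −0.19, 0.12, and 0.08. The share of reads on collagen genes differed by −0.86 to 0.40 percentage points without 1 rat and by 0.20 without those 3.

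Some fold changes turned sign under at least 1 alternative, and the cause was not tested. Log2 fold changes were −0.00010 (DESeq2), −0.00076 (no filter), −0.017 (replicate block), and −0.035 (muscle covariate) for *Col12a1*; 0.027 and 0.057 under the replicate block for *Col27a1* and *Col6a5*. Without the 3 rats they were 0.20 (*Col5a2*), 0.36 (*Col27a1*), −0.029 (*Col4a1*), −0.020 (*Col4a5*), 0.20 (*Col6a5*), −0.021 (*Col8a1*), 0.079 (*Col14a1*), and −0.13 (*Col20a1*). Without 1 rat, ranges crossing 0 were −0.48 to 0.015 (*Col11a1*), −0.12 to 0.17 (*Col12a1*), −0.088 to 0.33 (*Col13a1*), −0.32 to 0.062 (*Col14a1*), −0.29 to 0.054 (*Col17a1*), −0.38 to 0.14 (*Col1a1*), −0.53 to 0.048 (*Col22a1*), −0.16 to 0.21 (*Col27a1*), −0.34 to 0.029 (*Col4a3*), −0.11 to 0.20 (*Col4a5*), −0.16 to 0.11 (*Col5a2*), −0.29 to 0.35 (*Col6a5*), −0.20 to 0.25 (*Col8a1*), −0.052 to 0.29 (*Col8a2*), and −0.24 to 0.25 for the log2 ratio *Col12a1*/*Col14a1*. The *Col5a1*/*Col5a2* ratio stayed higher at 12 h p.r., and its exact permutation p was over 0.05 without each of 6 rats. The groups did not overlap without any of these rats, and whether the difference rests on 1 rat was not tested. Genes under a few CPM rest on too few reads to resolve such differences.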

Other observations

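Among all 496 pairs of the 32 tested collagen genes, the log2 FPKM ratio of *Col4a1* and *Col4a2* had the smallest SD over the 8 rats, at 0.0711. *Col1a1*/*Col11a1* came next at 0.133, then *Col6a2*/*Col12a1* at 0.140 and *Col5a1*/*Col6a2* at 0.151. The median SD over the 496 pairs was 0.535. *Col1a1*/*Col1a2* ranked 200 of 496, with an SD of 0.483, and *Col4a3*/*Col4a4*, the other pair that starts head to head, ranked 19. These pairs share their libraries, and low counts raise the SD of scarce genes. The ranking is a description made after the values were seen.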
